A study of Rattus norvegicus and Bos taurus with 6 samples.

Results

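The nitric oxide and cyclic GMP (cGMP) pathway was followed through 10 genes in 6 single-nucleus RNA libraries of fat tissue. The genes are the nitric oxide synthases Nos3 and Nos1, the soluble guanylate cyclase subunits Gucy1a1, Gucy1a2 and Gucy1b1, the cGMP-dependent protein kinase Prkg1, its partner Irag1, the cGMP phosphodiesterase Pde5a, and the natriuretic peptide receptors Npr1 and Npr3. They were listed by name, with earlier results of these data known, and each was matched by its symbol in every file. They are 10 of the 38697 genes listed for the 4 rat libraries made with the Parse kit, of the 25629 listed for the rat library made with the 10x kit, and of the 36075 listed for the cow library. All 10 had at least 1 UMI (unique molecular identifier, a tag that counts 1 captured RNA molecule) in each of the 5 Parse libraries, and 9 had one in the 10x library, where Nos1 had none.

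In blood vessels, nitric oxide made by endothelial cells diffuses into the neighbouring muscle cells and binds soluble guanylate cyclase, an enzyme built of an alpha and a beta subunit. The cGMP it makes activates the kinase encoded by Prkg1, which lowers calcium release and relaxes the vessel, and Pde5a breaks cGMP down. Natriuretic peptides from the heart raise cGMP through Npr1, a receptor that is itself a guanylate cyclase, while Npr3 clears these peptides from the surface of cells, fat cells among them.

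The study set out to recover nuclei of usable quality from white fat, with brown fat depots as a reference. The rat libraries came from male Dahl SS rats (SS/HsdMcwiCrl) fed a normal diet, with no treatment, and all tissue was snap-frozen. They held mesenteric perivascular fat (mesPVAT), once on the 10x kit and once on the Parse kit, and, on the Parse kit, retroperitoneal fat (RP fat), thoracic aortic perivascular fat (taPVAT) and subscapular brown fat (BAT). The cow library held subcutaneous white fat from the flank of lactating female Holstein cattle (cow WAT, Parse kit). The labels give neither the age nor the number of animals behind a library. Each condition has 1 library, so there is no replicate error and no test between conditions. The 95% intervals given below are exact Poisson intervals for counts, exact binomial intervals for shares and exact conditional intervals for ratios, and they cover counting error only.

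Depth set what could be seen. The libraries held 5887 nuclei in 10x mesPVAT, 3028 in Parse mesPVAT, 2805 in RP fat, 2297 in the cow library, 2708 in taPVAT and 2699 in BAT, with a median of 161, 346, 213, 3530, 1246 and 1706 UMIs per nucleus in the same order. No barcode was shared between any pair of libraries. Ucp1, the uncoupling protein of brown fat, stood at 1782 counts per 1000000 UMIs (CPM) in taPVAT and 2072 CPM in BAT. It stood at 63.4 CPM in Parse mesPVAT and 89.9 CPM in RP fat, but at 0.81 CPM (1 UMI) in 10x mesPVAT and 0.65 CPM in cow WAT. The source of the Ucp1 UMIs in the white Parse libraries was not tested. For the white rat depots the labels of the files and the description of nuclear quality in the study went opposite ways. The study reports fewer median genes per nucleus for mesPVAT than for RP fat on the Parse kit. The deposited libraries held a median of 304 genes under the mesPVAT label and 197 under the RP fat label. The study also gives RP fat the larger top UMI count of a single nucleus. In the deposited libraries that count was 41374 under the mesPVAT label and 5611 under the RP fat label. Whether the 2 names were exchanged was not settled, so "mesPVAT" and "RP fat" on the Parse kit are names by label only.

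Cell classes were read from 5 marker genes: Plin1 for adipocytes, Ptprb for endothelial cells, Pdgfra for adipose stem and progenitor cells, Notch3 for mural cells (pericytes and smooth muscle) and Ptprc for immune cells. A nucleus with UMIs of exactly 1 of them was put in the class of that marker. This placed 1635 nuclei in taPVAT, 1838 in BAT and 1026 in the cow library, but only 983 in Parse mesPVAT, 498 in RP fat and 869 in 10x mesPVAT, where 84.8% of nuclei held none of the 5. Nuclei with UMIs of several markers were left out too, 31.9% of nuclei in the cow library, 21.9% in taPVAT and 19.7% in BAT. The cow Plin1 class thus held 111 of 401 Plin1-positive nuclei, and the cow Notch3 class 231 of 602 Notch3-positive ones. In taPVAT, BAT and cow WAT every class also had the highest summed level of its own other markers (for the Notch3 class 7786, 11696 and 2941 CPM against at most 1003, 505 and 474 CPM in any other class). In RP fat the Ptprc class did not (273 CPM against 516 CPM elsewhere). Class results therefore rest on taPVAT, BAT and cow WAT, and those of the shallow white libraries are given as values beside them.

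Nos3, the endothelial nitric oxide synthase, had its highest level in Ptprb nuclei of every library. In that class it stood at 407 CPM (95% interval 328 to 499) for taPVAT, 557 CPM (487 to 634) for BAT and 98.7 CPM (82.9 to 117) for cow WAT. In Plin1 nuclei of the same libraries it stood at 13.1, 12.9 and 1.46 CPM. The next highest class was Ptprc in each of these libraries, and the ratio to it was 17.2 (5.72 to 85.1) for taPVAT, 3.31 (1.65 to 7.75) for BAT and 8.71 (4.59 to 18.6) for cow WAT. The Ptprb nuclei of the white rat libraries held 299 CPM in mesPVAT, 262 CPM in RP fat and 247 CPM in 10x mesPVAT, the last from 7 UMIs. In RP fat and 10x mesPVAT the Ptprb class stood apart from the next class, and in Parse mesPVAT its interval against Pdgfra nuclei (3 UMIs) included equality.

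Seen from the other side, 67.6% of the 244 Nos3-positive nuclei of taPVAT held a Ptprb UMI, against 17.2% of the nuclei without Nos3. The shares were 73.9% against 17.8% in BAT and 77.4% against 26.8% in cow WAT. The median depths of the nuclei with and without Nos3 were 1704.5 and 1706 UMIs in BAT. They were 1673.5 and 1212 UMIs in taPVAT and 7707 and 3180.5 UMIs in cow WAT. The part of depth in the gaps was not tested. Among Ptprb nuclei 28.7%, 47.8% and 25.9% held a Nos3 UMI in taPVAT, BAT and cow WAT, at median depths of 827, 1109 and 3401 UMIs. Among Plin1 nuclei the shares were 2.24%, 2.74% and 0.90% at 1712.5, 2045 and 3081 UMIs. Whether these Nos3 UMIs came from the Plin1 nuclei themselves was not tested.

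Over all nuclei, Nos3 stood at 115 CPM in Parse mesPVAT, 100.3 CPM in BAT, 70.4 CPM in taPVAT, 63.9 CPM in RP fat and 54.9 CPM in 10x mesPVAT, and at 24.7 CPM in cow WAT. Among the rat libraries only the step from BAT to taPVAT exceeded the counting interval. In such sums over a whole library, fewer cells of a type and less RNA per cell cannot be told apart.

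Nos1, the neuronal synthase, was sparse. It had 55 UMIs in taPVAT, 40 in BAT, 33 in Parse mesPVAT, 45 in RP fat and 155 in cow WAT. None was found among the 1237543 UMIs of 10x mesPVAT, where the exact upper limit was 2.98 CPM and 3 counts would be 2.42 CPM. Its level over all nuclei was 53.2 CPM in RP fat, 19.9 CPM in Parse mesPVAT, 10.8 CPM in taPVAT, 6.33 CPM in BAT and 9.2 CPM in the cow library, and each step between neighbours among the rat libraries exceeded the counting interval. No class stood apart from the next in any library, so the nuclei that carry Nos1 could not be assigned. In RP fat 8 of its UMIs lay in Plin1 nuclei (99.7 CPM), where the ratio to the next class was 2.14 (0.29 to 94.95).

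**Figure D1:**
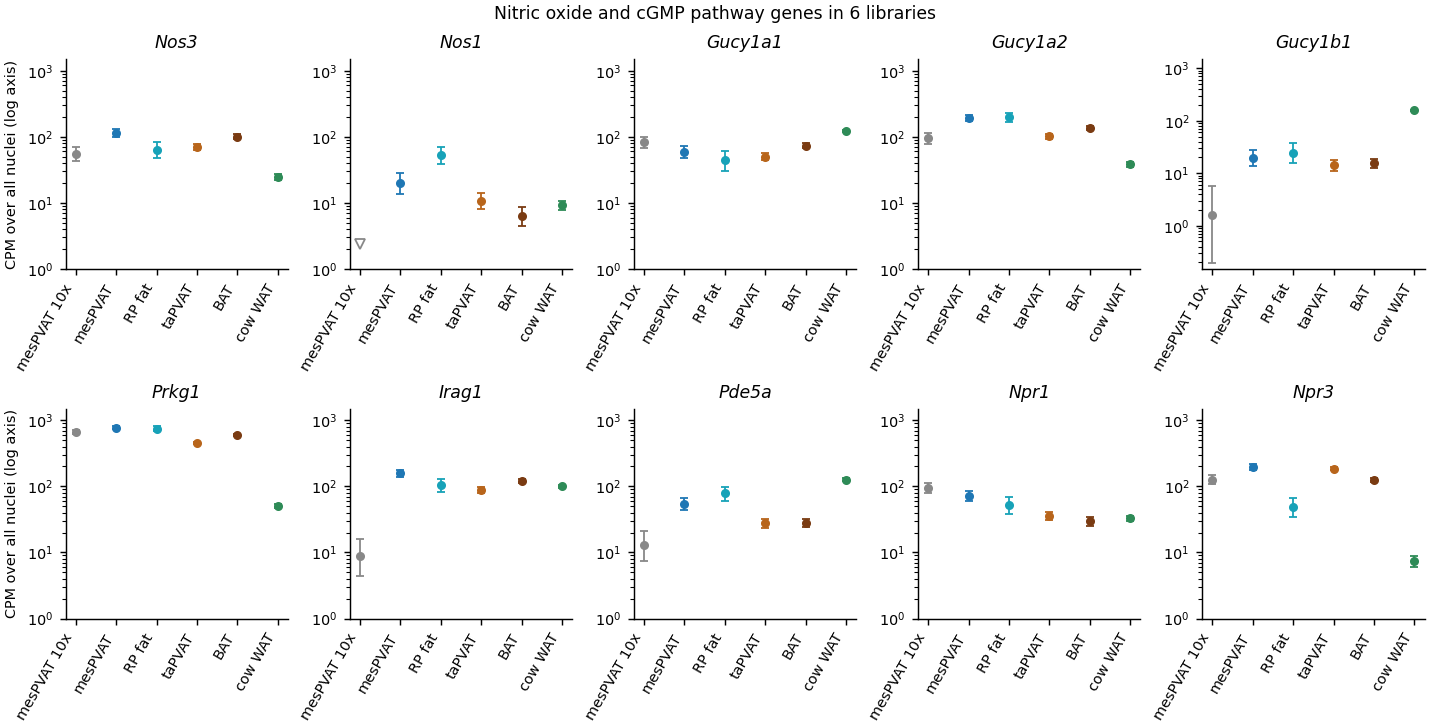
Level of each of the 10 genes over all nuclei of a library, in CPM on a log axis, with exact 95% Poisson intervals as bars and 1 panel per gene; the 6 libraries are on the horizontal axis. The 10x library sits far below the Parse library of the same label for Irag1 (8.89 against 159 CPM) and Gucy1b1 (1.62 against 19.9 CPM), but close to it for Prkg1 (667 against 774 CPM).

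The 3 cyclase subunits were followed next. Gucy1a1 and Gucy1a2 encode alternative alpha subunits, and Gucy1b1 encodes the beta subunit that either needs to make an active enzyme. Gucy1a1 and Gucy1b1 are neighbours on rat chromosome 2, with 19623 bases and 1 other gene between them in GRCr8. Gucy1a1 spans chr2:169716684-169780360, Gucy1b1 chr2:169646897-169697060 and Gucy1a2 chr8:8785212-9174322.

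All 3 subunits had their highest level in Notch3 nuclei of both deep rat libraries. Gucy1a1 stood at 576 CPM (406 to 794) there in taPVAT and 1024 CPM (852 to 1221) in BAT, and the ratio to the next class was 13.02 (6.35 to 29.3) and 7.25 (2.42 to 35.6). Gucy1a2 stood at 1261 CPM (1002 to 1568) and 1462 CPM (1255 to 1694), 10.7 (5.70 to 22.4) and 5.17 (2.33 to 14.3) times the next class. Gucy1b1 stood at 280 CPM (166 to 443) and 149 CPM (88.1 to 235), 17.8 (4.26 to 158) and 15.3 (5.05 to 62.3) times the next class. Plin1 nuclei held 25.8 CPM or less of each subunit in both libraries.

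The cow library divided the alpha subunits. Gucy1a1 stood at 610.5 CPM (561 to 664) in Notch3 nuclei, 9.31 times (7.45 to 11.8) the next class, and Gucy1b1 at 735 CPM (681 to 793), 12.1 times (9.67 to 15.4) the next class. Gucy1a2 varied less across the classes, at 55.3 CPM in Notch3, 52.2 CPM in Ptprc, 51.5 CPM in Pdgfra, 30.3 CPM in Ptprb and 23.4 CPM in Plin1 nuclei, and the ratio of Notch3 to Ptprc nuclei was 1.06 (0.70 to 1.62). Against the other 4 classes together, Notch3 nuclei were higher by 0.52 (0.03 to 1.00) on the log2 scale. Species, sex, depot, depth and annotation differ together between this library and the rat libraries and cannot be told apart.

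**Figure D2:**
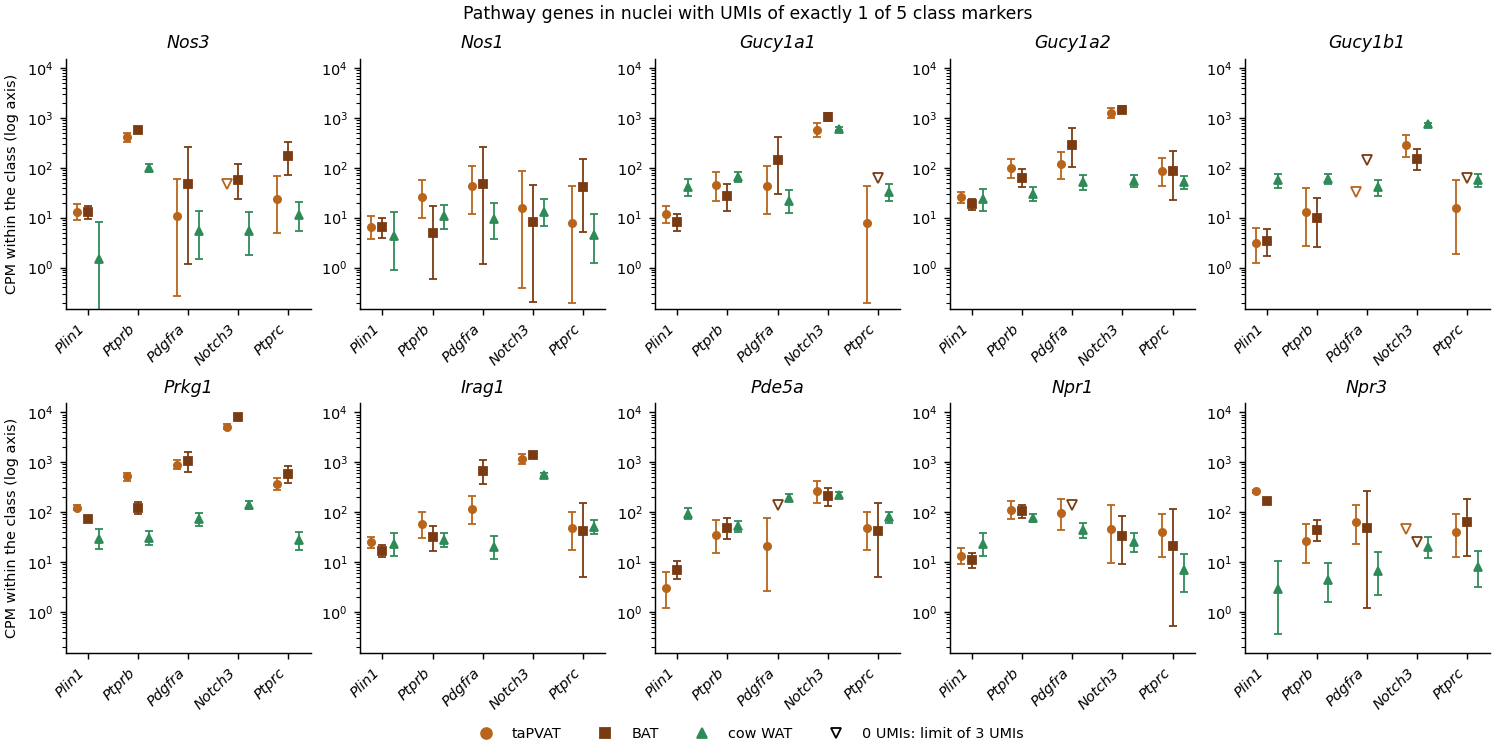
Level of each gene within nuclei of a single marker class, in CPM on a log axis with exact 95% Poisson intervals, for taPVAT, BAT and cow WAT; classes are named by their marker on the horizontal axis, open triangles mark the limit of 3 UMIs where none was found, and the bar of Nos3 in cow Plin1 nuclei runs below the axis. Nos3 peaks in Ptprb nuclei and Gucy1a1, Gucy1b1, Prkg1 and Irag1 in Notch3 nuclei of all 3 libraries, whereas Gucy1a2 stands apart in Notch3 nuclei of taPVAT and BAT but not of cow WAT, and Npr3 is highest in Plin1 nuclei of taPVAT and BAT (260 and 164 CPM) but low in those of cow WAT (2.93 CPM).

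Of the genes highest in Notch3 nuclei of both deep rat libraries, Irag1 and Pde5a are not printed here. The bases just before the starts of the other 4 genes are shown. They are the 250 bases before the start given by RefSeq for GRCr8, at chr2:169779624-169779873 (minus strand) for Gucy1a1, chr2:169696988-169697237 (minus strand) for Gucy1b1, chr8:8784962-8785211 (plus strand) for Gucy1a2 and chr1:239052185-239052434 (minus strand) for Prkg1, written 5′ to 3′ along the gene. For Gucy1a1 and Gucy1b1 the annotated gene reaches further upstream than this start. Capitals mark a GC box (GGGCGG) or a CCAAT box (CCAAT) on either strand, which overlap in Gucy1a1.
Gucy1a1: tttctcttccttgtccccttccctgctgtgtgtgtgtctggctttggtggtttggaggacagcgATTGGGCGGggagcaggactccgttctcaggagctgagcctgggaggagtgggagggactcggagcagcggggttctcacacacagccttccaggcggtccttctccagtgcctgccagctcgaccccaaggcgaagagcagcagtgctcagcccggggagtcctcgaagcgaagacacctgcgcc
Gucy1b1: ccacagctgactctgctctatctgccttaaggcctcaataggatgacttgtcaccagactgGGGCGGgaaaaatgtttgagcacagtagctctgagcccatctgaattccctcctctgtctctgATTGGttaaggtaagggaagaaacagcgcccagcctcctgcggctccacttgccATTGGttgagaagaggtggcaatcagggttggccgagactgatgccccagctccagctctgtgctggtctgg
Gucy1a2: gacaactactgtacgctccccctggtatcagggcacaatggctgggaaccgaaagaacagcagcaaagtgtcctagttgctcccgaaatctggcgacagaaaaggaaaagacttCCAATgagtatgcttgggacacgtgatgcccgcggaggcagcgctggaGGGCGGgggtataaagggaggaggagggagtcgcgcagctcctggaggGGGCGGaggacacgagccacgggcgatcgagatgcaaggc
Prkg1: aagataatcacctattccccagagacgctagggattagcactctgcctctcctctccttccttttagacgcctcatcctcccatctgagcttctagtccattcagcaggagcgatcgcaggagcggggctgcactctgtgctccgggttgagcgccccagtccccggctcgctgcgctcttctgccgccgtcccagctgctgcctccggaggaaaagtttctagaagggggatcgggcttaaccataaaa
Each of the 3 cyclase windows held both motifs and the Prkg1 window held neither. Of the genes not printed, both Irag1 windows held neither motif, and the Pde5a window held a GC box but no CCAAT box. Over all 10 genes, which have 11 such windows, a GC box was found in 7, CCAAT in 4 and both in 4 (the 3 cyclase genes and Npr1). Of 33469 RefSeq windows of the same length, 30.5% held a GC box, 34.0% held CCAAT and 10.1% held both. The CArG box of smooth muscle genes was in none of the 11 and in 1.497% of all windows. These matches describe letters in a window, not bound sites.

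Alpha and beta subunits were also looked for in the same nucleus. In cow WAT, 69.1% of the Gucy1a1-positive nuclei held Gucy1b1, against 19.95% of the others. Within Notch3 nuclei alone, 124 of 141 Gucy1a1-positive nuclei held Gucy1b1 (87.9%, 81.4 to 92.8) against 51.1% (40.3 to 61.8) of those without Gucy1a1. The medians of the nuclei with and without Gucy1a1 were 3981 and 2343 UMIs, and the part of depth in this gap was not tested. The class pools pericytes and smooth muscle, and the part of that mix was not tested either. For Gucy1a2 the same 2 shares within Notch3 nuclei of cow WAT were 76.7% and 72.9%.

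In the shallower rat libraries a gap between Gucy1a1-positive and Gucy1a1-negative nuclei was not detectable within the class. Over all nuclei, 17.1% of Gucy1a1-positive nuclei held Gucy1b1 in taPVAT and 22.7% in BAT, against 1.4% and 1.3% of the others. Within Notch3 nuclei the shares were 26.3% (9.15 to 51.2, 19 nuclei) against 17.8% in taPVAT and 26.8% (14.2 to 42.9, 41 nuclei) against 19.2% in BAT. For Gucy1a2, 13 of 37 positive Notch3 nuclei of taPVAT held Gucy1b1 (35.1%, 20.2 to 52.5) and 0 of 27 negative ones did (0 to 12.8), while in BAT the shares were 24.5% and 22.2%. Both alpha subunits were found together in 15 of 19 Gucy1a1-positive Notch3 nuclei of taPVAT and 30 of 41 of BAT, but in 28 of 141 of cow WAT. Of the Gucy1a1-negative Notch3 nuclei, 48.9% held Gucy1a2 in taPVAT (33.7 to 64.2, against 78.9%, 54.4 to 93.9), 73.1% in BAT (against 73.2%) and 16.7% in cow WAT (against 19.9%), and the intervals overlapped in each library. In 10x mesPVAT none of the 86 Gucy1a1-positive nuclei held Gucy1b1, which had 2 UMIs in that whole library.

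**Figure D3:**
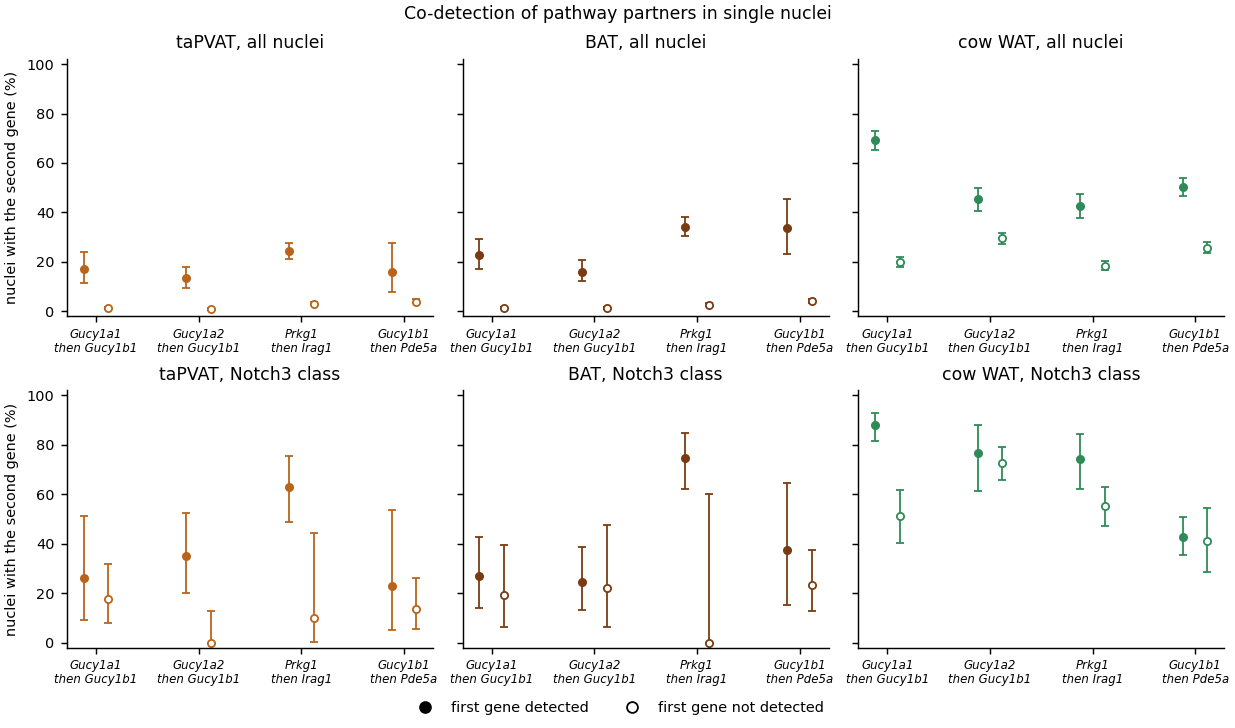
Percent of nuclei with a UMI of the second gene of a pair, among nuclei with the first (filled points) and without it (open points), over all nuclei and within Notch3 nuclei, with exact 95% binomial intervals. The widest gap within Notch3 nuclei of cow WAT is that of Gucy1a1 with Gucy1b1 (87.9% against 51.1%).

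Over all nuclei the alpha subunit Gucy1a1 stood at 83.2 CPM in 10x mesPVAT, 73.6 CPM in BAT, 59.2 CPM in Parse mesPVAT, 50.2 CPM in taPVAT and 43.8 CPM in RP fat, and no neighbours in this order differed beyond the counting interval. Gucy1a2 stood at 199 CPM in RP fat, 194 CPM in Parse mesPVAT, 134 CPM in BAT, 102.3 CPM in taPVAT and 95.4 CPM in 10x mesPVAT. Here the 2 white Parse libraries did not differ from each other but both lay above BAT, and BAT lay above taPVAT. Gucy1b1 stood at 24.8 CPM in RP fat, 19.9 CPM in Parse mesPVAT, 15.5 CPM in BAT and 14.3 CPM in taPVAT, within the interval of each neighbour, and at 1.62 CPM in 10x mesPVAT, below all of them. In cow WAT the same genes stood at 122 CPM (Gucy1a1), 38.3 CPM (Gucy1a2) and 158 CPM (Gucy1b1).

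Prkg1, the kinase that cGMP activates, is a long gene that spans 1233235 bases (chr1:237818950-239052184 in GRCr8). In Notch3 nuclei it stood at 5155 CPM (4614 to 5741) for taPVAT and 8086 CPM (7588 to 8609) for BAT, and 84.4% and 94.0% of those nuclei were positive. The next class was Pdgfra in both, at 896 and 1036 CPM, and the ratio to it was 5.75 (4.51 to 7.40) and 7.80 (5.12 to 12.5). In BAT 107 of its 979 UMIs in the class came from 1 nucleus, without which the level was 7800 CPM. In cow WAT Prkg1 stood at 137 CPM (114 to 163) in Notch3 nuclei, 1.91 times (1.37 to 2.69) the Pdgfra class, and 28.6% of them were positive at a greater depth.

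Irag1 encodes the protein through which the kinase acts on the calcium release channel of the endoplasmic reticulum. In Notch3 nuclei it stood at 1152 CPM (905 to 1447) for taPVAT, 1396 CPM (1193 to 1623) for BAT and 566 CPM (518 to 617) for cow WAT. The next class was Pdgfra in taPVAT (117 CPM) and BAT (659 CPM) and Ptprc in cow WAT (51.0 CPM), so that the ratio was 9.82 (5.18 to 20.5), 2.12 (1.23 to 3.95) and 11.1 (8.17 to 15.4). The BAT value for Pdgfra nuclei rests on 14 UMIs in 18 nuclei.

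Prkg1 and Irag1 were looked for in the same nuclei. Of Prkg1-positive nuclei, 24.3% held Irag1 in taPVAT, 34.3% in BAT and 42.7% in the cow library, against 3.1%, 2.7% and 18.5% of the others. Within Notch3 nuclei the shares were 63.0% (34 of 54) against 1 of 10 in taPVAT, 74.6% (47 of 63) against 0 of 4 in BAT and 74.2% against 55.2% in the cow library. The medians of nuclei with and without Prkg1 were 1495 and 1151.5 UMIs in taPVAT, 2004 and 1656.5 in BAT and 7158.5 and 3032 in the cow library, and the part of depth in these gaps was not tested. In Pdgfra nuclei Irag1 was no more frequent with Prkg1 than without it in taPVAT (7.89%, 3 of 38, against 14.3%) or cow WAT (3.57%, 1 of 28, against 9.23%). In Pdgfra nuclei of BAT it was more frequent with Prkg1 (6 of 13) than without (1 of 5). The intervals overlapped in each of these libraries. In 10x mesPVAT 1 of 556 Prkg1-positive nuclei held Irag1 (0.18%) against 0.19% of the others.

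Genes of striated muscle moved with the Notch3 class in taPVAT and BAT and are given beside these levels. Of the 4 listed (Ttn, Neb, Ryr1 and Myh7), all 4 had UMIs in Notch3 nuclei of taPVAT, only Ttn and Neb in BAT, and Neb, Ryr1 and Myh7 in cow WAT, whose file lists 3 of them. Their summed level in that class was 3784 CPM in taPVAT, 2478 CPM in BAT and 34.3 CPM in the cow library, and 33 of 64, 45 of 67 and 26 of 231 Notch3 nuclei held at least 1 UMI. Over all nuclei of these libraries the shares were 14.3%, 11.9% and 21.2%. With every nucleus holding such a UMI left out, an alternative chosen after seeing the data, the taPVAT levels were 2775 CPM for Prkg1, 734 CPM for Gucy1a2, 478 CPM for Gucy1a1, 128 CPM for Gucy1b1 (4 UMIs) and 1052 CPM for Irag1. In BAT they were 7514, 967, 1143, 154 and 1494 CPM in the same order, and in cow WAT 137, 52.2, 643, 739 and 584 CPM. The log2 ratio of Notch3 nuclei to the other 4 classes for Prkg1 was then 4.04 in taPVAT, 6.67 in BAT and 1.85 in the cow library, against 4.74, 6.498 and 1.85 with all nuclei.

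The white rat libraries showed less of this pattern. In Parse mesPVAT Notch3 nuclei (46 in all) still had the highest level of Prkg1 (1604 CPM), Gucy1a2 (784 CPM) and Irag1 (641.5 CPM), each apart from the next class. In RP fat no class stood apart for any of these genes, and Prkg1 lay between 673 and 1011 CPM in all 5 classes. In 10x mesPVAT Prkg1 was highest in Ptprb nuclei at 1871 CPM (1402 to 2448), where 16 of its 53 UMIs came from 1 nucleus and the level without it was 1405 CPM, and Gucy1a1 stood at 494 CPM there from 14 UMIs. The 36 Notch3 nuclei of that library held 1 UMI of Prkg1. Their other mural markers summed to only 681 CPM, against up to 412 CPM in another class, and 3 of 5 were highest there. Whether these nuclei were mural was therefore not settled.

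Over all nuclei Prkg1 stood at 774 CPM in Parse mesPVAT, 750.0 CPM in RP fat, 667 CPM in 10x mesPVAT, 597.5 CPM in BAT and 454 CPM in taPVAT, and every step but the one between the 2 white Parse libraries exceeded the counting interval. It stood at 50.3 CPM in cow WAT. Irag1 stood at 159 CPM in Parse mesPVAT, 121 CPM in BAT, 104 CPM in RP fat, 88.6 CPM in taPVAT, 8.89 CPM in 10x mesPVAT (11 UMIs) and 101 CPM in cow WAT. Only its first and last steps among the rat libraries exceeded the interval.

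Pde5a, the phosphodiesterase that hydrolyses cGMP, was highest in Notch3 nuclei of the deep rat libraries, at 265 CPM (154 to 424) for taPVAT and 206 CPM (134 to 305) for BAT. The ratio to the next class was 5.603 (2.11 to 17.4) in taPVAT, against Ptprc nuclei, and 4.26 (2.27 to 8.09) in BAT, against Ptprb nuclei. In cow WAT it stood at 221 CPM in Notch3 and 195.2 CPM in Pdgfra nuclei, a ratio of 1.13 (0.91 to 1.41), so these classes did not differ beyond counting error. The cow Plin1 nuclei held 93.7 CPM against 3.06 and 7.07 CPM in taPVAT and BAT. Over all nuclei Pde5a stood at 78.1 CPM in RP fat, 54.9 CPM in Parse mesPVAT, 27.9 CPM in BAT, 27.6 CPM in taPVAT, 12.9 CPM in 10x mesPVAT and 127 CPM in cow WAT, and among the rat libraries only BAT and taPVAT did not differ.

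In the deep rat libraries the natriuretic receptors were highest in other classes. Npr1, the receptor that makes cGMP, was highest in Ptprb nuclei of the 3 deep libraries, at 111 CPM (71.6 to 163) for taPVAT, 104 CPM (75.4 to 140) for BAT and 76.4 CPM (62.5 to 92.4) for cow WAT. It stood apart from the next class in BAT, by 3.15 (1.15 to 12.1) against Notch3 nuclei, and in cow WAT, by 1.76 (1.18 to 2.70) against Pdgfra nuclei. In taPVAT Pdgfra nuclei held 96.0 CPM and the classes did not differ beyond counting error. Of Npr1-positive nuclei, 48.1%, 60.9% and 60.6% held Ptprb in taPVAT, BAT and cow WAT, against 20.2%, 24.0% and 27.2% of the others. Npr1-positive nuclei were the deeper ones, at medians of 1835.5 against 1225, 2536 against 1686 and 8671 against 3081.5 UMIs in that order. The part of depth in these shares was not tested. Over all nuclei Npr1 stood at 95.4 CPM in 10x mesPVAT, 71.8 CPM in Parse mesPVAT, 52.1 CPM in RP fat, 35.7 CPM in taPVAT, 29.6 CPM in BAT and 33.1 CPM in the cow library. Among the rat libraries the steps from 10x to Parse mesPVAT and from RP fat to taPVAT exceeded the counting interval.

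Npr3, the clearance receptor, was the only member highest in Plin1 nuclei of both deep rat libraries. It stood at 260 CPM (239 to 281) there in taPVAT and 164 CPM (150.0 to 178) in BAT. The Notch3 nuclei of both held 0 UMIs, where 3 counts would be 46.7 and 24.8 CPM. The ratio to the next class was 4.06 (1.85 to 11.1) for taPVAT and 2.59 (0.88 to 12.6) for BAT, the latter against 3 UMIs in Ptprc nuclei. In the white rat libraries Plin1 nuclei held 438 CPM (373 to 512) in Parse mesPVAT, 2.86 times (1.47 to 6.37) the next class, 99.7 CPM in RP fat and 240 CPM in 10x mesPVAT. The ratio to the next class was 2.19 (0.29 to 97.3) in RP fat and 1.76 (0.30 to 71.2) in 10x mesPVAT, each against 1 UMI. In these 2 libraries the Plin1 class did not stand apart.

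In cow WAT Npr3 was low in every class. Plin1 nuclei held 2.93 CPM, from 2 UMIs, and the highest level was 19.9 CPM (11.8 to 31.5) in Notch3 nuclei, 2.51 times (0.999 to 7.103) the next class. Over all nuclei it stood at 197 CPM in Parse mesPVAT, 186 CPM in taPVAT, 127 CPM in 10x mesPVAT, 124 CPM in BAT, 48.5 CPM in RP fat and 7.31 CPM in cow WAT. Parse mesPVAT did not differ from taPVAT, nor 10x mesPVAT from BAT, beyond the counting interval.

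To set shares of positive nuclei from different libraries beside each other, each nucleus was thinned to 200 UMIs. The shares given above are not thinned. At that depth Prkg1 was found in 13.8% of nuclei in Parse mesPVAT, 12.4% in RP fat, 10.2% in 10x mesPVAT, 8.05% in taPVAT, 7.30% in BAT and 0.87% in the cow library. Without thinning the shares were 27.2%, 18.3%, 9.44%, 27.1%, 22.3% and 18.5% in the same order. Thinned, Gucy1b1 was found in 3.74% of cow nuclei and in 0.10% to 0.39% of rat nuclei, and Pde5a in 1.92% and 0.14% to 1.60%. Npr3 was found in 2.99% of nuclei in taPVAT, 2.90% in Parse mesPVAT, 1.13% in RP fat and 0.13% in cow WAT. For Prkg1 in taPVAT and BAT, and for Npr3 in taPVAT and Parse mesPVAT, the order of the shares went against that of CPM, and no order was read. Nor was one read for Prkg1 among the white rat libraries, since thinning to 500 UMIs turned it round, to 29.6% in Parse mesPVAT, 32.6% in RP fat and 35.1% in 10x mesPVAT (262 nuclei). Thinning to 200 UMIs left out 3788 shallower nuclei in 10x mesPVAT, 1302 in RP fat and 476 in Parse mesPVAT, and none in the others.

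The class profiles of the members were then set against each other and against other genes. The measure was Pearson's r of log2(CPM + 10) over the 5 classes of taPVAT, BAT and cow WAT, 15 points that share libraries, over genes with at least 100 UMIs in each library, which left out Nos1 and Gucy1b1. Among members the highest values were 0.93 for Gucy1a2 with Prkg1, 0.89 for Gucy1a1 with Irag1 and 0.86 for Gucy1a2 with Irag1. The lowest was -0.82 for Pde5a with Npr3. These values also carry differences in level between libraries. With each library's mean removed they were 0.95, 0.94, 0.88 and -0.76 in the same order, and that of Gucy1a1 with Prkg1 rose from 0.54 to 0.82. Over the 5 classes of 1 library, Pde5a with Npr3 was at -0.97 in taPVAT and -0.77 in BAT but at 0.68 in the cow library, so its sign was not shared. The r of Npr3 with Gucy1a1, Gucy1a2, Prkg1 and Irag1 was likewise negative in taPVAT and BAT and positive in the cow library. Gucy1a2 with Prkg1 was at 0.98, 0.97 and 0.62, and Gucy1a1 with Irag1 at 0.97, 0.92 and 0.95. Lower values in the cow library were those of Gucy1a2 with Irag1 (0.98, 0.95 and 0.53) and Gucy1a1 with Gucy1a2 (0.94, 0.91 and 0.29). Nos3 had no r above 0.41 with any other member, and 0.62 with Npr1 once library means were removed.

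The genes most like a member, among all genes compared, are given by the same measure. Those most like Gucy1a1 were Acta2, the actin of smooth muscle (r = 0.97), Septin4 (0.93) and Gjc1, a gap junction protein of vessel walls (0.92). Those most like Irag1 were Arhgef17 (0.94), Steap4 (0.92) and Ednra, the endothelin receptor of smooth muscle (0.91). Those most like Nos3 were Rapgef5 (0.97), Lrrc3b (0.96) and Podxl, a sialomucin of the endothelial surface (0.94). For Npr1 they were Ephb4 (0.89), Tek, the angiopoietin receptor (0.89), and Nova2 (0.85).

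For Gucy1a2 the most alike were Kcnq5 (0.93), Prkg1 (0.93) and Kcnip4 (0.91), and for Prkg1 they included Gucy1a2 (0.93) and Klhl32 (0.92). For Npr3 they included Letmd1 (0.92) and Tmem161b (0.88). For Pde5a they were Pawr (0.87), Vps8 (0.87) and Inpp4b (0.84).

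**Figure D4:**
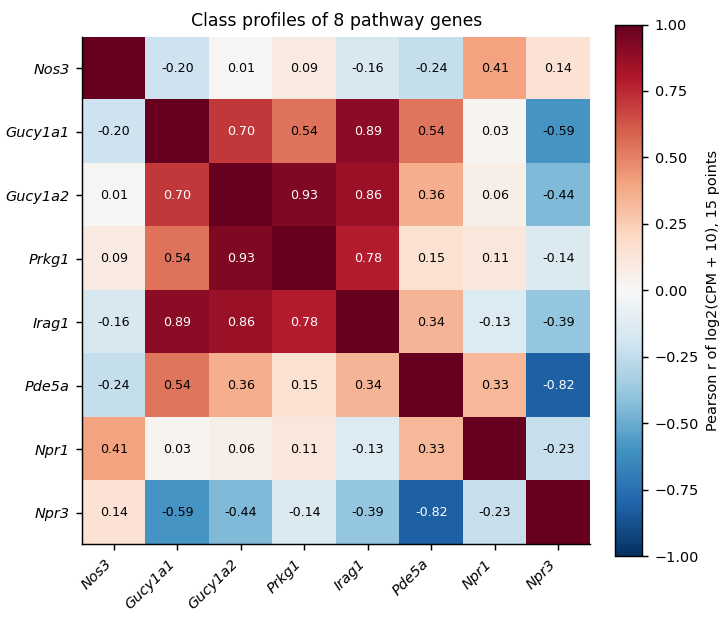
Pearson's r between the class profiles of 8 members over 15 points (5 marker classes in each of taPVAT, BAT and cow WAT), on log2(CPM + 10). Gucy1a1, Gucy1a2, Prkg1 and Irag1 form a block of positive values, from 0.54 to 0.93, while Pde5a with Npr3 is at -0.82, a value whose sign turns within cow WAT (0.68). Within cow WAT alone the block is weaker for Gucy1a1 with Gucy1a2 (0.29).

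The first comparison of libraries set taPVAT against BAT, the 2 deep rat libraries with high Ucp1. A gene counted as different where its CPM ratio was at least 2 or at most 0.5, among genes with at least 20 UMIs over both libraries. None of the 10 members did, where 7.07% of the 18696 genes tested did (5.97% higher and 1.1% lower in taPVAT). The largest ratios were those of Nos1, 1.70 (1.11 to 2.63), and Npr3, 1.502 (1.37 to 1.65). Those of Gucy1a1 (0.68), Nos3 (0.70), Irag1 (0.73), Prkg1 (0.76) and Gucy1a2 (0.76) had intervals below 1, and those of Pde5a (0.99), Gucy1b1 (0.92) and Npr1 (1.21) included 1. The median log2 ratio was -0.25 over the members and 0.11 over all genes tested. The markers Ptprb and Notch3 each had a ratio of 0.81, Pdgfra of 3.86 and Ptprc of 3.03, and the part of these marker differences in the members' ratios was not tested.

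Within classes, the direction of Prkg1 depended on the class. In Notch3 nuclei it was lower in taPVAT than in BAT (5155 and 8086 CPM, ratio 0.64, 0.56 to 0.72), and in Ptprb nuclei it was higher (518 and 121 CPM, ratio 4.28, 3.05 to 6.08), as it was in Plin1 nuclei (122 and 72.0 CPM, ratio 1.70, 1.42 to 2.03). Without nuclei holding a striated muscle marker the ratio in Notch3 nuclei was 0.37 (0.29 to 0.47). In taPVAT 46 of 230 Ptprb nuclei held its 117 UMIs, 12 of them in 1 nucleus, and in BAT 28 of 316 held 50. Npr3 was higher in taPVAT within Plin1 nuclei as well, at a ratio of 1.59 (1.41 to 1.79). Gucy1a1 within Notch3 nuclei (0.56, 0.38 to 0.82) and Nos3 within Ptprb nuclei (0.73, 0.57 to 0.93) were lower in taPVAT. Each class here comes from 1 library per depot, so the difference between animals is not in these intervals.

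The second comparison set the library labelled mesPVAT against that labelled RP fat, both on the Parse kit. Of the 10 members 2 passed the 2-fold rule, Npr3 higher and Nos1 lower in mesPVAT, where 15.7% of 18507 genes did (5.88% higher and 9.79% lower). Npr3 stood at 197 against 48.5 CPM, a ratio of 4.06 (2.93 to 5.76), and Nos1 at 19.9 against 53.2 CPM, a ratio of 0.37 (0.23 to 0.60). These directions rest on the 2 labels, and with the labels exchanged the ratios would be 0.25 for Npr3 and 2.67 for Nos1. Plin1 itself had a ratio of 2.69. Within Plin1 nuclei the ratio of Npr3 was 4.40 (2.18 to 10.4), from 160 UMIs in mesPVAT and 8 in RP fat. It was 5.81 (0.90 to 244) in Ptprb, 5.39 (0.53 to 265) in Pdgfra and 3.37 (0.47 to 148) in Ptprc nuclei. Each of these rests on 1 UMI in RP fat. The parts of adipocyte number and of background RNA in the Npr3 difference were not tested. Nos3 (1.80, 1.33 to 2.49) and Irag1 (1.53, 1.19 to 1.96) were higher in mesPVAT without reaching 2-fold, and Ptprb had a ratio of 1.55. The remaining class markers stood at 1.36 (1.05 to 1.78, Ptprc), 1.23 (0.92 to 1.66, Notch3) and 0.57 (0.43 to 0.77, Pdgfra). Prkg1 (1.03, 0.94 to 1.14) and Gucy1a2 (0.98, 0.81 to 1.18) had intervals that included 1. The median log2 ratio was 0.24 over the members and -0.25 over all genes tested. Scaling by the median ratio of genes in place of library totals raised every log2 ratio of this comparison by 0.28, after which Nos3 passed as well (log2 ratio 1.13) and 72.3% of the passing genes were higher in mesPVAT, against 37.6% before.

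The third comparison set the 2 libraries labelled mesPVAT against each other, 10x over Parse. They differ in kit, nuclear isolation, sorting on a DNA stain, gene annotation and batch, and the depot of the Parse library is known by its label only, which cannot be told apart. Of the 10 members 6 passed the rule, all lower on 10x, where 55.4% of 12378 genes passed, 22.6% higher and 32.8% lower. Irag1 fell to 0.06 (0.03 to 0.10) of its Parse level, from 263 UMIs to 11, and Gucy1b1 to 0.08 (0.01 to 0.32), from 33 UMIs to 2. Pde5a stood at 0.24 (0.13 to 0.40), Nos3 at 0.48 (0.36 to 0.63) and Gucy1a2 at 0.49 (0.39 to 0.61). Nos1 had no UMI on 10x against 33 on Parse, a ratio of 0.12 if taken at 3 counts, with an exact upper limit of 0.16. In nuclei with at least 500 UMIs (262 on 10x and 976 on Parse) the rule was passed by 3 members, Irag1, Nos3 and Pde5a, where 49.2% of genes passed, and no longer by Gucy1b1, Gucy1a2 and Nos1. There Gucy1a2 had a ratio of 0.79 (0.53 to 1.16). Gucy1b1 had 0 UMIs against 25 and Nos1 0 against 23. Taken at 3 counts, neither could pass the rule, so their loss from it does not show a smaller difference. The exact upper limits of their ratios were 0.83 and 0.91.

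Set against the Parse library labelled RP fat instead, an alternative chosen after seeing the data, the 10x library again had 6 members past the rule, 1 higher and 5 lower, where 59.7% of 11344 genes passed (29.6% higher and 30.1% lower). Irag1 (0.09, 0.04 to 0.16), Gucy1b1 (0.07, 0.01 to 0.27), Pde5a (0.17, 0.09 to 0.29), Gucy1a2 (0.48, 0.38 to 0.61) and Nos1 (0 against 45 UMIs) were lower against both Parse libraries. Npr3 was higher by 2.62 (1.84 to 3.78) against RP fat, the opposite direction to that against Parse mesPVAT, and Nos3 had a ratio of 0.86 (0.59 to 1.25).

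Against Parse mesPVAT the other 4 members were closer. Prkg1 (0.86, 0.79 to 0.94) and Npr3 (0.65, 0.53 to 0.78) were lower on 10x by less than 2-fold, though in nuclei with at least 500 UMIs Prkg1 was higher there (1.78, 1.55 to 2.04), and Gucy1a1 (1.41, 1.06 to 1.88) and Npr1 (1.33, 1.02 to 1.73) were higher. The markers Ptprb (0.27), Notch3 (0.38), Ptprc (0.47) and Plin1 (0.51) were lower on 10x too. Pdgfra stood at 50.1 CPM (38.4 to 64.2) on 10x and 62.2 CPM (50.7 to 75.4) on Parse, with overlapping intervals. Scaling by the median ratio of genes in place of library totals lowered every log2 ratio of this comparison by 0.34, with 6 members passing again and 30.2% of passing genes higher on 10x, against 40.8% before. The log2 ratios of Gucy1a1 and Npr1 were then 0.15 and 0.07, close to no difference. Within the cyclase, then, the alpha subunit Gucy1a1 was higher on 10x per library total while its beta partner Gucy1b1 had 2 UMIs there.

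**Figure D5:**
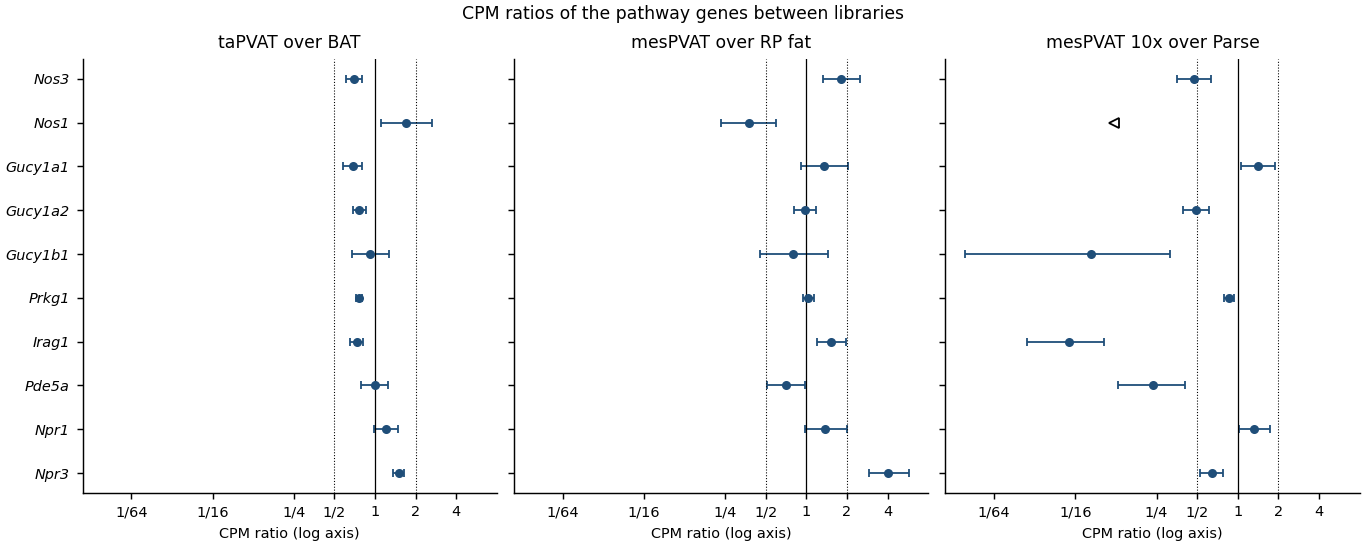
CPM ratio of each member in the 3 comparisons on a log axis, with exact 95% intervals and lines at 0.5, 1 and 2; Nos1 on 10x has 0 UMIs and is drawn at its bound. All 10 ratios of taPVAT over BAT lie between 0.68 and 1.70, whereas those of 10x over Parse run down to 0.06 for Irag1.

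Another 44 genes of the pathway (cofactor and arginine enzymes, natriuretic ligands, other cyclases, kinases, phosphodiesterases and targets) were counted beside the members. Of the 35 tested in taPVAT over BAT none passed the 2-fold rule, where 7.07% of all genes did, and the extremes were Pde1c (0.63), Cav1 (0.77) and Rgs2 (0.79) against Ass1 (1.54), Pts (1.4996) and Ddah2 (1.39). In mesPVAT over RP fat 1 of 35 was higher and 2 were lower, against 5.88% and 9.79% of all genes. The highest were Ppp1r12a, a myosin phosphatase subunit that the kinase acts on (2.02), Pde2a (1.71) and Cav1 (1.67), and the lowest Arg2 (0.47, 11 and 12 UMIs), Gucy2c (0.48) and Nostrin (0.51). In 10x over Parse 6 of 35 were higher and 17 lower, against 22.6% and 32.8% of all genes. They were led by Rgs2 (19.99), Pde3b (3.74) and Cav1 (3.44) and by Prkg2 (1 against 63 UMIs), Kcnma1 (0.04) and Trpc6 (2 against 62 UMIs).

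Of 39 of these genes listed in the files of all 3 deep libraries, 2 had at least 2 times the level of every other class in the same class of each. The share of all genes that pass this rule was not computed, so the count is not read as high or low. Pde2a, a phosphodiesterase that cGMP stimulates, stood at 270.0, 305 and 567 CPM in Ptprb nuclei of taPVAT, BAT and cow WAT. Pde3b, a phosphodiesterase that cGMP inhibits and that insulin acts through in fat cells, stood at 885, 906 and 1051 CPM in Plin1 nuclei.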

How the data were processed

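Nuclei from 5 rat libraries and 1 cow library were sequenced. The authors deposited UMI counts per gene and nucleus. For the Parse Evercode WT v3 kit these were made by the authors with split-pipe on GRCr8 (rat) and ARS-UCD1.3 (cow). For the 10x 3' v3 library the file header names Cell Ranger 7.1.0, and the nuclei were sorted on DAPI; its annotation is not certain from the sources used here.

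All deposited nuclei were used, with no doublet caller, so doublets remain. Nuclei with UMIs of exactly 1 of 5 markers formed the classes. CPM is the UMIs of a gene per 1000000 UMIs, summed over nuclei. Genes with at least 20 UMIs over 2 libraries were compared, and a library at 0 was taken at 3 counts. Shares were compared after thinning to 200 UMIs.

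Named genes were the 10 members, the class markers, Ucp1, the 3 highest and 3 lowest other pathway genes per comparison, any of them with at least 2 times the level of every other class in all 3 deep libraries, and the 3 genes of highest r per member. Some of the last are not reported here. Members and lists were chosen with earlier results of these data known. Coordinates and promoter windows came from RefSeq on GRCr8, which held all 10 members. The ratio step was tested on simulated data. Alternatives covered nuclear filters, sublibraries, class rules, count minimum, fold, scaling and pseudocount. Python 3.11.15, numpy 2.4.6, scipy 1.17.1, pandas 2.3.3 and matplotlib 3.10.9 were used.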

Additional observations from a re-analysis of the deposited data

How the results depend on the processing

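No paired analysis was possible because each condition has 1 library. Of the class ratios under other settings, 125 of 180 stayed within the counting interval, 54 left it with the same direction or without a call and 1 reversed. That one was Npr3 in cow WAT, where the log2 ratio of Plin1 nuclei to the other 4 classes was 0.22 in sublibrary 2 alone. With any nucleus holding a marker UMI, 25 ratios moved and 5 stayed, and with marker panels 17 moved and 13 stayed. With the study filters all 30 stayed. Most moves thus came with another class rule. In the main classes the log2 ratios were 4.95 (Nos3), 5.23 (Gucy1a1), 5.998 (Gucy1b1), 4.74 (Prkg1) and 2.96 (Npr3) in taPVAT. For the first 4 genes they were 5.05, 6.54, 5.21 and 6.498 in BAT, and 3.98, 3.78, 3.76 and 1.85 in cow WAT. Taking any nucleus with a marker UMI against all others lowered the log2 ratios to 2.71 (Nos3), 3.28 (Gucy1a1), 3.49 (Gucy1b1), 2.63 (Prkg1) and 2.26 (Npr3) in taPVAT, to 2.94 (Nos3), 4.55 (Gucy1a1), 3.68 (Gucy1b1) and 4.25 (Prkg1) in BAT, and to 2.07 (Nos3), 2.17 (Gucy1a1), 2.04 (Gucy1b1) and 0.78 (Prkg1) in cow WAT. Classes from marker panels gave 3.74 (Nos3), 4.42 (Gucy1a1), 4.67 (Gucy1b1) and 4.24 (Prkg1) in taPVAT, 3.60 (Nos3), 5.12 (Gucy1a1) and 4.99 (Prkg1) in BAT, and 2.89 (Nos3), 3.26 (Gucy1a1) and 3.02 (Gucy1b1) in cow WAT. In BAT, Gucy1a1 was at 5.799 in sublibrary 1 and 7.38 in sublibrary 2, where Prkg1 was at 6.71 and Npr3 at 2.94. Without nuclei holding a striated muscle marker, Gucy1b1 was at 4.83 and Prkg1 at 4.04 in taPVAT. The cause of these shifts was not tested.

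At 1.5-fold, 2 members passed in taPVAT over BAT and 4 in mesPVAT over RP fat, where 20.3% and 43.9% of all genes did. With nuclei of at least 500 UMIs, 3 passed in 10x over Parse, where 49.2% did. Gucy1b1 and Nos1, with 0 UMIs on 10x taken at 3 counts, could not pass there. Scaling by the median ratio raised the share of higher genes in mesPVAT over RP fat from 37.6% to 72.3%, with 3 members passing, and lowered it in 10x over Parse from 40.8% to 30.2%. Genes passing numbered 1322, 2900 and 6862 in the 3 comparisons, 549, 1256 and 4464 with at least 50 UMIs, 7953, 9256 and 10664 with no minimum, and 3791, 8116 and 8891 at 1.5-fold. Levels stayed within the counting interval in 217 of 280 cases and library ratios in 134 of 148. Shares of positive nuclei did so in 20 of 120, and thinning to 500 UMIs moved 56 of 60. Matching by older symbols or IDs was not run, since every member was found by its symbol. Class levels rest on 64 to 231 Notch3 nuclei per deep library and 36 to 46 in the white rat libraries.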

Other observations

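In the 10x library members were also found in nuclei with markers of other cell types. Of its 5887 nuclei, 183 had at least 1 UMI of a lymphatic endothelial marker (Mmrn1, Prox1, Reln or Flt4). Of these, 155 (84.7%) held none of the 5 class markers, much as did all nuclei of this library (84.8%). Prkg1 stood at 2496 CPM in them against 564 CPM in the rest, Gucy1a1 at 484 against 60.6 CPM, Gucy1a2 at 469 against 74.3 CPM and Nos3 at 302 against 41.0 CPM. A mesothelial marker (Msln, Upk3b, Wt1 or Lrrn4) was found in 745 nuclei, and there Prkg1 stood at 1132 against 585 CPM, Npr1 at 155 against 84.7 CPM and Pde5a at 37.4 against 8.57 CPM, the last from 7 and 9 UMIs. Msln was in 549 nuclei and Wt1 in 258. A single such UMI does not make a nucleus mesothelial, and the share of background RNA was not tested. In the Parse library of the same label, 300 nuclei had a lymphatic marker, and Nos3 stood at 93.8 CPM in them against 121 CPM in the rest. The markers behind these sets differed, with Prox1 in 152 nuclei on 10x and 42 on Parse, and Reln in 23 and 194. The sets may therefore not hold the same cells.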
